A study of Homo sapiens with 43 samples.

Results

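The time course of the interferon gamma (IFNg) response was followed in GM12878, a human lymphoblastoid cell line that Epstein-Barr virus immortalised from B lymphocytes, as the effect of IFNg at 6 h minus its effect at 1 h. The 8 libraries that enter this comparison were chosen by their labels from the 43 libraries and 22 groups of the series, which were made to ask how chromatin remodelling by BAF complexes bears on responses to stimuli. They form 4 groups of 2 libraries: DMSO+IFNg 6 h, DMSO+Veh 6 h, DMSO+IFNg 1 h and DMSO+Veh 1 h. All 4 groups received DMSO, the solvent of the BAF inhibitor BRM014, for 30 min before the stimulus, and none of them received the inhibitor. IFNg was used at 100 ng/mL, and the vehicle is called Veh in the labels without further description. Of 58780 genes in the files, 15183 had enough counts to be tested. The labels do not say that replicate libraries came from separate cultures, so p-values measure only the spread between these libraries, which may be technical.

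IFNg binds a receptor of IFNGR1 and IFNGR2 chains, whose kinases JAK1 and JAK2 phosphorylate STAT transcription factors. STAT dimers enter the nucleus and bind GAS elements, and among their direct targets are transcription factors such as IRF1, which then act on further genes, and SOCS proteins, which inhibit the kinases. In antigen-presenting cells such as B cells the response is known for guanylate-binding proteins, the peptide transporter and immunoproteasome of antigen presentation, and antiviral proteins.

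Total counts per library were 12910315 to 22278350. Markers of B cells (MS4A1, CD79A, CD79B, PAX5 and CD22) summed to 1535 to 1636 CPM (counts scaled to a common library total) in the DMSO+IFNg 6 h libraries and to 1801 to 1891 CPM in the other 6. T and NK cell markers stayed between 2.32 and 3.50 CPM in sum, myeloid markers between 6.28 and 8.59 CPM and hepatocyte markers between 0.111 and 0.289 CPM, and their part in the results was not tested. No replicate pair agreed within sampling noise. The chi-square of replicate counts per degree of freedom was 5.94 and 7.28 for the DMSO+IFNg and DMSO+Veh pairs at 6 h, against 2.60 and 2.52 for the same pairs at 1 h. In bulk RNA a change in the share of cells that respond cannot be told apart from a change of RNA per cell.

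The kinetics, written below as the log2 fold change of IFNg over vehicle at 6 h minus that at 1 h, differed from 0 in 305 genes (2.01% of those tested; edgeR quasi-likelihood, Benjamini-Hochberg adjusted p under 0.05). It was positive in 170 genes (1.12%), of which 40 exceeded 2-fold, and negative in 135 genes (0.889%), of which 8 exceeded 2-fold. At 1 h, IFNg raised 66 genes (0.435%) and lowered 12 (0.079%), 78 in all (0.514%). By 6 h it raised 527 genes (3.47%) and lowered 478 (3.15%), 1005 in all (6.62%). The median kinetics over all genes tested was -0.0035 on the log2 scale. Over the same interval 217 genes (1.43%) changed in the vehicle libraries alone, 170 upward (1.12%) and 47 downward (0.31%), and the kinetics has this movement subtracted. Without that subtraction 1906 genes (12.6%) differed between the IFNg libraries of the 2 times. Leaving out 1 of the 1 h libraries lowered the count of 305 to 203 and 157 (DMSO+IFNg 1 h replicates 1 and 2) and to 180 and 162 (DMSO+Veh 1 h replicates 1 and 2). A fit of the 8 libraries alone, which leaves fewer degrees of freedom, called 154. The main fit gives each gene 1 spread shared over all groups, although the compared pairs at 6 h differed more than those at 1 h. With only the compared groups fitted, 128 genes were called at 1 h and 349 at 6 h, against 78 and 1005. How the shared spread bears on these counts and on the classes below was not tested. The 78 calls at 1 h became 50 without either DMSO+Veh 1 h library, and the 1005 at 6 h became 664 without DMSO+Veh 6 h replicate 2. Genes lowered at 6 h numbered 209 without DMSO+IFNg 6 h replicate 1 and 291 without DMSO+Veh 6 h replicate 1, beside 473 and 426 raised, and genes raised at 6 h numbered 339 without DMSO+Veh 6 h replicate 2. Negative kinetics was called in 65 genes without DMSO+IFNg 6 h replicate 1 and in 263 without replicate 2, beside 183 and 189 with positive kinetics. It was called in 57 to 86 genes without DMSO+Veh 6 h replicate 1 or any 1 of the 1 h libraries. The 217 of the vehicle libraries became 60 without DMSO+Veh 6 h replicate 1, and 41 and 27 without DMSO+Veh 1 h replicates 1 and 2.

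The calls at 1 h, at 6 h and in the kinetics sort the response into classes. IFNg raised 10 genes at 1 h that were no longer called at 6 h and had negative kinetics (transient), and 4 that were raised at both times with negative kinetics (declining). A further 30 were raised at both times with no call in the kinetics (sustained), and 10 at both times with positive kinetics (growing). In 155 genes the rise was called at 6 h and not at 1 h, with positive kinetics (late), and in 119 a fall was called at 6 h and not at 1 h, with negative kinetics (late fall). The 12 genes lowered at 1 h are called early fall here. Many responders have no decided time course: 328 genes raised and 354 lowered at 6 h were not called at 1 h and not called in the kinetics either. Genes just inside the threshold, such as TCF3 (kinetics -0.25, adjusted p = 0.0489), and just outside it, such as FKBP5 (-0.27, adjusted p = 0.0501), hardly differed in value.

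**Figure D1:**
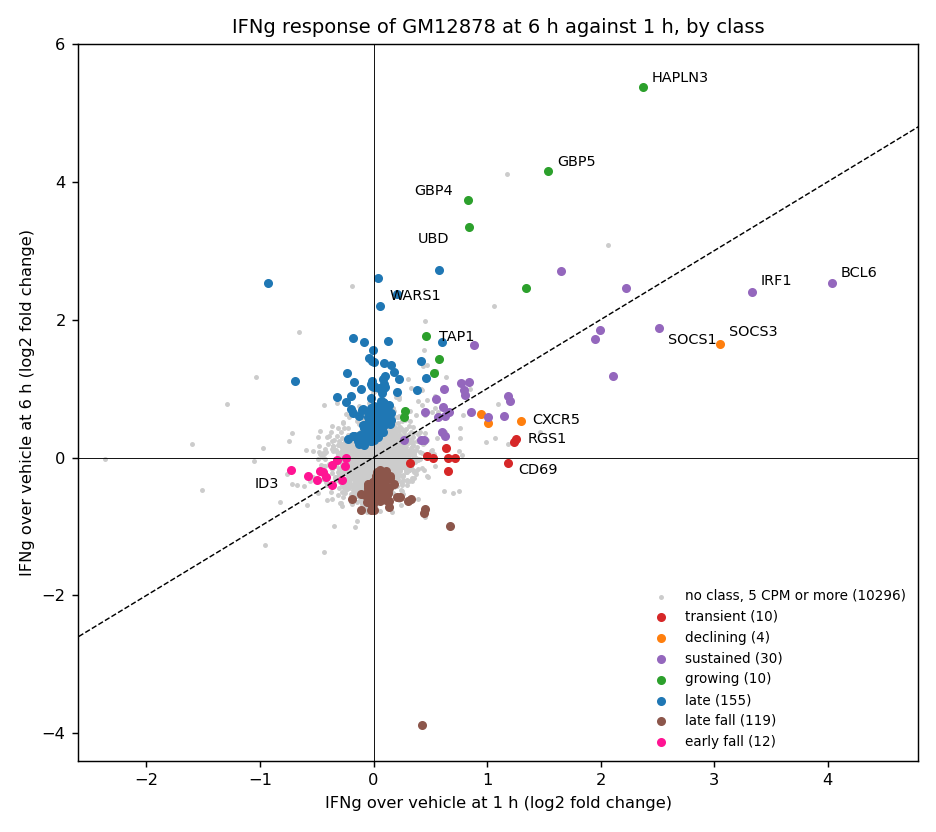
Log2 fold change of IFNg over vehicle at 6 h (vertical axis) against 1 h (horizontal axis), 1 point per gene, coloured by class; grey points are 10296 genes of no class with a group mean of at least 5 CPM, and 1 further such gene at 9.73 lies outside the axes. GBP5, GBP4, UBD and HAPLN3 lie above the dashed line of equal effects and SOCS3 below it; IRF1 and BCL6 also lie below it, without a call in the kinetics.

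Promoters of genes with early and late rises are shown with matches to 2 sequence patterns that were searched on both strands, TTCNNNGAA (the GAS-type pattern of STAT dimers) and an ISRE-type pattern of IRF factors, written as GAAA, any 2 bases and GAAA. Each is the 250 bases before a RefSeq start (GRCh38.p14), written 5′ to 3′ along the gene, with a match in capitals. Where a gene has several starts, the first window with a match is shown, or else the first window. A gene counts below as holding a pattern if any of its windows does. How the number of starts per gene bears on the shares was not tested.
IRF1 (chr5:132490774-132491023, minus strand): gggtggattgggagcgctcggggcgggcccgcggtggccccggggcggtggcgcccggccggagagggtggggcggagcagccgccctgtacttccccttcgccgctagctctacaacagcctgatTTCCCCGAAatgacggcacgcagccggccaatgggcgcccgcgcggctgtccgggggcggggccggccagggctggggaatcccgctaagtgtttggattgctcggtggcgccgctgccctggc
GBP1 (chr1:89065209-89065458, minus strand): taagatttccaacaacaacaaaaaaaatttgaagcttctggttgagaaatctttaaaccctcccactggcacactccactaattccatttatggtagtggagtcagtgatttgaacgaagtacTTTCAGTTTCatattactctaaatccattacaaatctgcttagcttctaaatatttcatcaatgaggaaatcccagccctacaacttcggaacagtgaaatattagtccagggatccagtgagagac
The capitals mark a TTCNNNGAA match 124 bases before the start of IRF1 and an ISRE-type match, read on the opposite strand, 127 bases before the start of GBP1. The window of HGF, a late gene taken by the same rule, held neither pattern and is not printed. Both printed windows and that of HGF adjoin a GENCODE 44 transcript start as well. This holds within 100 bases for 10804 of the genes tested that have a window (98.7%), but not for SOCS3 and CXCR5, whose RefSeq starts lie 848 and 9500 bases from the nearest GENCODE start, and nothing is drawn from their windows. On the minus strand the GENCODE 44 genes begin further upstream, at 132508719 for IRF1, 89065360 for GBP1 and 81770438 for HGF. The windows of IRF1 and HGF and the match of GBP1 thus lie within the annotated genes. Among the 126 late genes with a promoter in the RefSeq table, 22 (17.46%) held TTCNNNGAA and 29 (23.02%) held the ISRE-type pattern. The shares were 7.58% and 3.62% of the 10943 genes tested that have a window, and 8.09% and 3.71% of all 27305 genes with a window. Of the 26 sustained genes with a promoter 5 held the first pattern and 6 the second, and of the 9 transient genes 2 and 0. Among the 86 genes with a late fall, 5 and 7 held them. Both patterns overlapped in 20 of 35116 windows. These matches are letters in a fixed window and no measure of binding.

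Among the feedback inhibitors, SOCS3, which binds and inhibits JAK kinases, had the largest early rise that waned. SOCS3 had 29.8 and 37.3 CPM in the DMSO+IFNg libraries at 6 h, against 11.2 and 10.3 CPM in the DMSO+Veh libraries at 6 h. At 1 h it had 77.3 and 79.1 CPM with IFNg, against 9.10 and 9.76 CPM with vehicle. The IFNg libraries stood above the vehicle libraries at both times, and both 1 h values lay above both 6 h values. Its log2 fold change was 1.65 ± 0.11 (SE) at 6 h and 3.05 ± 0.11 at 1 h, and its kinetics -1.40 ± 0.16 (adjusted p = 8.84e-07), a call that held under all 14 alternatives. SOCS1, the inhibitor most tied to IFNg signalling, had 73.3 and 70.7 CPM at 6 h with IFNg, against 21.2 and 18.2 CPM with vehicle. At 1 h SOCS1 had 107 and 88.6 CPM with IFNg, against 17.9 and 16.5 CPM with vehicle. Its kinetics of -0.63 ± 0.20 was not called (adjusted p = 0.158), but DESeq2 called it (adjusted p = 0.0348). CISH, an inhibitor of cytokine receptors that signal through STAT5, had 6.00 and 9.03 CPM at 6 h with IFNg, against 2.74 and 3.81 CPM with vehicle. CISH at 1 h had 15.2 and 14.9 CPM with IFNg, against 3.32 and 3.65 CPM with vehicle. Its kinetics was -0.92 ± 0.29 (adjusted p = 0.121), and it passed the test without DMSO+IFNg 6 h replicate 2 (adjusted p = 0.0184).

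A further 3 negative regulators had positive kinetics. PTPN2, a tyrosine phosphatase that acts on JAK and STAT proteins, had 52.3 and 54.7 CPM at 6 h with IFNg, against 40.1 and 39.4 CPM with vehicle. At 1 h it had 38.6 and 40.0 CPM with IFNg, against 43.3 and 40.0 CPM with vehicle, so that the groups overlapped at 1 h and not at 6 h. Its kinetics was 0.52 ± 0.10 (adjusted p = 0.00283). The related PTPN1 and USP18, a protease that removes ISG15 and dampens type I interferon signalling, also had positive kinetics, of 0.32 ± 0.08 (adjusted p = 0.0223) and 0.57 ± 0.13 (adjusted p = 0.0162). Each of these calls was lost in 6 of the 8 fits that left out 1 library, all but those without DMSO+Veh 6 h replicate 1 and DMSO+IFNg 6 h replicate 2. Of the 17 feedback inhibitors tested, 3 thus had positive and 1 had negative kinetics, and the list's median was 0.01. For this list and those below, the shares over all genes tested were 1.12% positive and 0.89% negative in the kinetics. At 6 h they were 3.47% raised and 3.15% lowered, and at 1 h 0.43% and 0.08%. Both IFNg libraries at 6 h had less SOCS2, the family member best known from growth hormone signalling, than both vehicle libraries, with values of 11.7 and 12.7 against 16.7 and 15.1 CPM, but its log2 fold change of -0.37 ± 0.12 missed the threshold (adjusted p = 0.0510). SOCS4, SOCS5, SOCS6, SOCS7 and PIAS1 to PIAS4 were called at neither time.

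Of the 10 genes with a transient rise, CCL3 is in the chemokine list and ZFP36 in that of immediate-early genes, and the others are in none of the lists. CD69, an early activation antigen of lymphocytes, had 17.9 and 25.1 CPM at 6 h with IFNg, against 23.6 and 22.6 CPM with vehicle. At 1 h CD69 had 47.6 and 47.0 CPM with IFNg, against 20.1 and 21.6 CPM with vehicle. Its groups overlapped at 6 h and were more than 2-fold apart at 1 h (kinetics -1.27 ± 0.15, adjusted p = 3.67e-06). RGS1, which shortens signalling from chemokine receptors, had 91.0 and 128 CPM at 6 h with IFNg, against 99.3 and 84.5 CPM with vehicle. At 1 h RGS1 had 197 and 197 CPM with IFNg, against 79.9 and 84.7 CPM with vehicle. The RGS1 groups overlapped at 6 h and not at 1 h, and its kinetics of -0.99 ± 0.17 (adjusted p = 0.00481) lost its call when the 8 libraries were fitted alone (adjusted p = 0.197). PDE4B, a phosphodiesterase that breaks down cyclic AMP, had 22.9 and 29.0 CPM at 6 h with IFNg, against 22.1 and 22.5 CPM with vehicle. PDE4B at 1 h had 45.6 and 48.4 CPM with IFNg, against 20.7 and 19.1 CPM with vehicle (kinetics -1.01 ± 0.14, adjusted p = 1.40e-05). Its 6 h groups did not overlap, but the difference at 6 h was not called (0.23 ± 0.10, adjusted p = 0.209).

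Smaller transient rises were found for CCL3, a chemokine that attracts monocytes and T cells (kinetics -0.73 ± 0.13, adjusted p = 0.000659), and for ZFP36, which binds AU-rich messengers and speeds their decay (-0.50 ± 0.10, adjusted p = 0.00283). CCL3 had 38.9 and 48.1 CPM at 6 h with IFNg, against 48.0 and 40.7 CPM with vehicle, and 80.1 and 81.9 CPM at 1 h with IFNg, against 49.8 and 48.5 CPM with vehicle. Both 1 h IFNg libraries thus stood above the other 6, while the 6 h groups overlapped. ZFP36 had 94.7 and 104 CPM at 6 h with IFNg, against 97.4 and 83.3 CPM with vehicle, and at 1 h 123 and 131 CPM with IFNg, against 82.9 and 79.2 CPM with vehicle. The 4 vehicle libraries of ZFP36 spanned 79.2 to 97.4 CPM, below both 1 h IFNg libraries. CXCR4, the receptor for CXCL12 that holds B cells in marrow and germinal centres, had kinetics of -0.66 ± 0.14 (adjusted p = 0.00688) and lost the call without DMSO+IFNg 6 h replicate 1 (adjusted p = 0.0685) and without DMSO+Veh 1 h replicate 2 (adjusted p = 0.0603). Of the 10 transient genes, CD69, PDE4B, RGS1, CCL3, ZFP36 and RHOH kept their call in each of the 8 fits that left out 1 library, TAGAP in 4 of them, and PRDM1 and RGS16 in 2. At 6 h, all 10 were lower in DMSO+IFNg replicate 1 than in replicate 2, with a median log2 ratio of -0.29. Of all 15183 genes tested 7970 were lower there, with a median of -0.01. Without DMSO+IFNg 6 h replicate 1 the class held 5 genes, and without replicate 2 it held 17.

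Beside SOCS3 the declining class held CXCR5, the receptor that draws B cells into follicles, DUSP5, a phosphatase of ERK kinases, and ENSG00000275993, which had no symbol match and may share reads with a near-identical copy. CXCR5 had 11.1 and 12.4 CPM at 6 h with IFNg, against 8.28 and 8.02 CPM with vehicle. At 1 h CXCR5 had 18.7 and 21.1 CPM with IFNg, against 7.99 and 8.14 CPM with vehicle. Its groups did not overlap at either time, but its kinetics of -0.76 ± 0.19 (adjusted p = 0.0302) kept its call in 2 of the 8 fits that left out 1 library, those without DMSO+IFNg 6 h replicate 2 and DMSO+IFNg 1 h replicate 1, and not under DESeq2 (adjusted p = 0.157). DUSP5, at -0.32 ± 0.08 (adjusted p = 0.0306), kept its call in 3 of those 8 fits. The class held 7 genes without DMSO+IFNg 6 h replicate 2, 2 without DMSO+Veh 6 h replicate 1, DMSO+IFNg 1 h replicate 1 or DMSO+Veh 1 h replicate 1, and 1 without DMSO+IFNg 1 h replicate 2 or DMSO+Veh 1 h replicate 2.

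IRF1, the transcription factor that carries much of the secondary response, was raised at both times. IRF1 had 338 and 432 CPM at 6 h with IFNg, against 70.3 and 75.5 CPM with vehicle. At 1 h it had 691 and 678 CPM with IFNg, against 68.1 and 67.6 CPM with vehicle. Every IFNg library lay more than 2-fold above every vehicle library, and the 1 h values exceeded the 6 h values. Its kinetics of -0.93 ± 0.25 (95% interval -1.48 to -0.39) was not called (adjusted p = 0.102). DESeq2 called it (adjusted p = 0.0261), as did the fit of the 8 libraries alone (adjusted p = 0.0190) and the fit without DMSO+IFNg 6 h replicate 2 (adjusted p = 0.0443), so that its place in the sustained class rests on the test used. ICAM1, an adhesion molecule of antigen-presenting cells, was in the same position, with kinetics of -0.42 ± 0.11 (adjusted p = 0.0527) that DESeq2 called (adjusted p = 0.00827), as did edgeR with the replicate number as a block (adjusted p = 0.0244) and the fits without DMSO+IFNg 6 h replicate 2 (adjusted p = 0.000160) or DMSO+Veh 6 h replicate 2 (adjusted p = 0.0471). ICAM1 had 377 and 465 CPM at 6 h with IFNg, against 295 and 268 CPM with vehicle, and 513 and 511 CPM at 1 h with IFNg, against 251 and 260 CPM with vehicle. The sustained class is therefore a set of genes raised at both times whose change between times was not resolved, with kinetics from -1.50 to 1.06.

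Of the further sustained genes, TBX21, IRF8 and CD274 had nearer effects at both times, and BCL6 did not. TBX21, the transcription factor T-bet, which drives IFNg-type programmes in lymphocytes, had 32.8 and 54.7 CPM at 6 h with IFNg, against 11.9 and 12.4 CPM with vehicle. At 1 h TBX21 had 39.1 and 35.2 CPM with IFNg, against 8.91 and 9.76 CPM with vehicle, and its kinetics was -0.13 ± 0.27 (adjusted p = 0.943), or 0.18 without DMSO+IFNg 6 h replicate 1. IRF8, a factor of B and myeloid cells, had 362 and 439 CPM at 6 h with IFNg, against 245 and 238 CPM with vehicle. IRF8 at 1 h had 332 and 333 CPM with IFNg, against 214 and 220 CPM with vehicle (kinetics 0.12 ± 0.08, adjusted p = 0.701, or -0.022 without DMSO+IFNg 6 h replicate 2). CD274, which encodes the inhibitory ligand PD-L1, had log2 fold changes of 0.65 ± 0.09 at 6 h and 0.85 ± 0.09 at 1 h. BCL6, the repressor of the germinal centre programme, had 1.74 and 1.97 CPM at 6 h with IFNg, against 0.0668 and 0.493 CPM with vehicle, and 4.48 and 4.44 CPM at 1 h with IFNg, against 0.430 and 0.112 CPM with vehicle. Its IFNg libraries lay above its vehicle libraries at both times, at levels too low to fix the kinetics (-1.50 ± 0.76, adjusted p = 0.495).

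**Figure D2:**
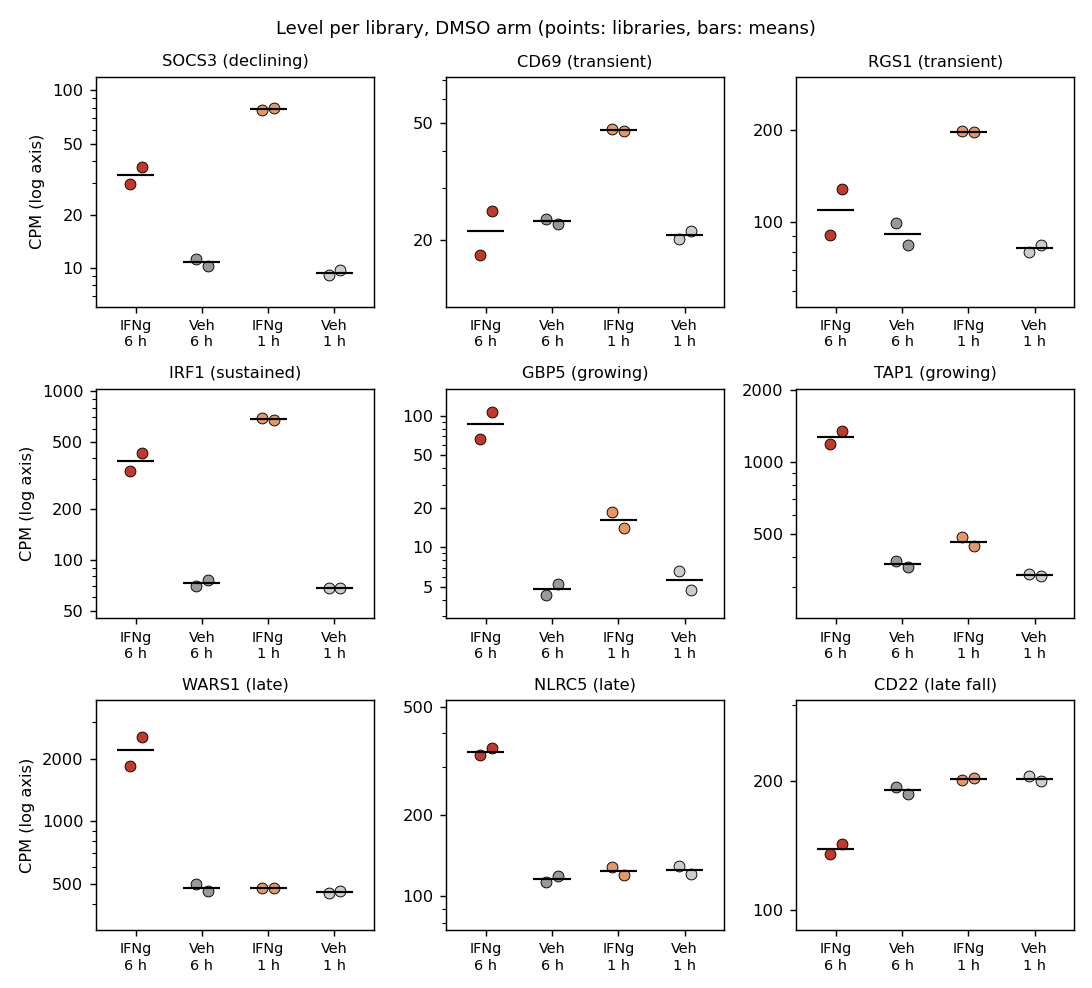
CPM (log axis) of 9 genes in the 8 libraries, with IFNg left of vehicle and 6 h left of 1 h; points are libraries and bars are means of 2. SOCS3, CD69 and RGS1 peak in the 1 h IFNg libraries, GBP5 and TAP1 climb at both times, WARS1 and NLRC5 are highest in the 6 h IFNg libraries, and CD22 is lowest there.

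Of the 9 members of the receptor and JAK-STAT list, 4 were called in the kinetics, each with a positive value, with a list median of 0.01. JAK2, the kinase bound to the IFNGR2 chain, had 73.0 and 84.2 CPM at 6 h with IFNg, against 45.7 and 49.7 CPM with vehicle. The 1 h libraries of JAK2 held 45.4 and 40.8 CPM with IFNg, against 44.1 and 43.5 CPM with vehicle, so that they overlapped (kinetics 0.74 ± 0.11, adjusted p = 7.71e-05). STAT3, which transmits signals of the interleukin 6 family, had kinetics of 0.69 ± 0.08 (adjusted p = 4.70e-07). STAT2, the partner of IRF9 in the interferon-stimulated complex, had 0.93 ± 0.17 (adjusted p = 0.0137), and missed the threshold without DMSO+Veh 6 h replicate 1, DMSO+IFNg 1 h replicate 2 or DMSO+Veh 1 h replicate 1 (adjusted p = 0.0590 to 0.0666). IFNGR1, the chain that binds IFNg, went the other way at 6 h, with 121 and 125 CPM with IFNg, against 146 and 152 CPM with vehicle. That fall of 0.27 ± 0.06 on the log2 scale was called (adjusted p = 0.00175), while the kinetics of -0.25 ± 0.08 was not (adjusted p = 0.127). JAK1, the kinase bound to IFNGR1, was lowered at 6 h too, with 165 and 194 CPM with IFNg, against 205 and 217 CPM with vehicle (-0.23 ± 0.06, adjusted p = 0.00985). Its kinetics of -0.24 ± 0.08 (adjusted p = 0.165) passed the test without DMSO+IFNg 6 h replicate 2 (adjusted p = 0.00648). At 6 h 4 of the 9 members were thus raised and 2 lowered, and none was called at 1 h. IFNGR2 was called at neither time.

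The guanylate-binding proteins, large GTPases that attack the vacuoles of intracellular pathogens, held several of the largest positive kinetics. GBP5 had 66.2 and 107 CPM at 6 h with IFNg, against 4.34 and 5.29 CPM with vehicle. At 1 h GBP5 had 18.4 and 13.9 CPM with IFNg, against 6.58 and 4.71 CPM with vehicle. The IFNg and vehicle libraries did not overlap at either time. Its log2 fold change was 4.16 ± 0.26 at 6 h and 1.54 ± 0.28 at 1 h, and its kinetics 2.62 ± 0.40 (95% interval 1.75 to 3.49, adjusted p = 0.00277). GBP4 had 330 and 498 CPM at 6 h with IFNg, against 32.7 and 29.9 CPM with vehicle, and 66.2 and 62.1 CPM at 1 h with IFNg, against 32.8 and 39.1 CPM with vehicle (kinetics 2.90 ± 0.23, adjusted p = 8.40e-06). GBP1 had 126 and 251 CPM at 6 h with IFNg, against 29.2 and 28.3 CPM with vehicle. GBP1 at 1 h had 59.1 and 51.9 CPM with IFNg, against 36.4 and 38.2 CPM with vehicle, groups that did not overlap, but the early rise of 0.58 ± 0.24 was not called (adjusted p = 1.00). Both IFNg libraries lay above both vehicle libraries at 1 h in 2518 of the 15183 genes tested. The kinetics of GBP1 was 2.15 ± 0.34 (adjusted p = 0.00433) and that of GBP2 2.17 ± 0.29 (adjusted p = 0.00151).

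Of the 6 guanylate-binding proteins tested, 5 had positive kinetics, with a median of 2.16. The exception, GBP6, lay at or under 0.837 CPM in every library of the comparison. In the fit of the 8 libraries alone the calls of GBP5 (adjusted p = 0.206), GBP4 (0.0530), GBP1 (0.333) and GBP2 (0.242) were lost, while each was kept without any 1 of the 8 libraries. GBP3, at 1.07 ± 0.27 (adjusted p = 0.0262), lost its call in 5 of the 8 fits that left out 1 library (adjusted p up to 0.198), without DMSO+IFNg 6 h replicate 2, DMSO+Veh 6 h replicate 1, DMSO+IFNg 1 h replicate 2 or either DMSO+Veh 1 h library. At 6 h DMSO+IFNg replicate 1 was lower than replicate 2 in all 10 growing genes, with a median log2 ratio of -0.38. It was lower in 7970 of the 15183 genes tested, with a median of -0.01. The genes of this family are similar in sequence and stand in a cluster on chromosome 1 (GBP5 at chr1:89256189-89272860, minus strand, GENCODE 44 on hg38), and how shared reads were divided between them is uncertain.

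The growing genes HAPLN3, UBD and APOL6 are in the list of IFNg effectors. HAPLN3, a link protein of the extracellular matrix, had 56.3 and 90.7 CPM at 6 h with IFNg, against 1.80 and 1.75 CPM with vehicle. At 1 h HAPLN3 had 9.05 and 8.94 CPM with IFNg, against 1.91 and 1.57 CPM with vehicle. The 2 pairs of groups were far apart, and HAPLN3 had the largest kinetics among genes named by the rule, 3.0 ± 0.51 (adjusted p = 0.00374), a call that was lost without DMSO+Veh 1 h replicate 1 (adjusted p = 0.0712) and in the fit of the 8 libraries alone (adjusted p = 0.121). UBD, the ubiquitin-like modifier FAT10, had 141 and 198 CPM at 6 h with IFNg, against 15.1 and 18.1 CPM with vehicle. UBD at 1 h had 34.1 and 38.9 CPM with IFNg, against 18.2 and 22.4 CPM with vehicle (kinetics 2.51 ± 0.22, adjusted p = 2.66e-06). APOL6, an apolipoprotein L of the cell interior whose family members are similar in sequence, had kinetics of 1.12 ± 0.15 (adjusted p = 0.000314). Of the 31 IFNg effectors tested, 17 were called in the kinetics, each with a positive value (median 0.66). At 6 h 27 of them were raised, against 7 at 1 h. The growing class held 18 genes without DMSO+IFNg 6 h replicate 1, 4 and 5 without DMSO+IFNg 1 h replicates 1 and 2, and 2 and 3 without DMSO+Veh 1 h replicates 1 and 2.

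WARS1, the cytoplasmic tryptophanyl-tRNA synthetase, led the late genes of high level. WARS1 had 1852 and 2546 CPM at 6 h with IFNg, against 497 and 459 CPM with vehicle. At 1 h WARS1 had 474 and 478 CPM with IFNg, against 450 and 463 CPM with vehicle (kinetics 2.14 ± 0.14, adjusted p = 2.06e-07). HGF, hepatocyte growth factor, stood at lower levels, with 5.45 and 7.96 CPM at 6 h with IFNg, against 0.802 and 1.35 CPM with vehicle. HGF at 1 h had 1.02 and 1.17 CPM with IFNg, against 1.23 and 0.898 CPM with vehicle, and its kinetics of 2.56 ± 0.55 (adjusted p = 0.00742) missed the threshold without DMSO+Veh 1 h replicate 1 (adjusted p = 0.0868). C4A, a complement component nearly identical to C4B, had 3.87 and 10.3 CPM in the IFNg libraries at 6 h, against 1.74 and 2.51 CPM with vehicle. Its kinetics of 1.93 ± 0.45 (adjusted p = 0.0172) lost its call without 5 of the 8 libraries: DMSO+IFNg 6 h replicate 2, DMSO+Veh 6 h replicate 1, both DMSO+IFNg 1 h libraries and DMSO+Veh 1 h replicate 1 (adjusted p = 0.0519 to 0.215). Over the whole late class, whose genes were not called at 1 h, the median log2 fold change was 0.01 at 1 h and 0.52 at 6 h. The class held 88 genes without DMSO+IFNg 1 h replicate 2, and 103 and 100 without DMSO+Veh 1 h replicates 1 and 2. On the length-scaled TPM scale, levels in the 6 h IFNg libraries averaged 1798 for WARS1, 688 for TAP1 and 48.0 for GBP5.

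Of the 20 genes of presentation through MHC class I that were tested, 8 were late and 1 was growing, 5 were raised at 6 h with no call at 1 h or in the kinetics, and 6 had no call. The 9 called in the kinetics each had a positive value (median of the list 0.33), and 14 genes were raised at 6 h against 1 at 1 h. NLRC5, the transactivator of class I genes, had 331 and 352 CPM at 6 h with IFNg, against 113 and 119 CPM with vehicle. At 1 h NLRC5 had 129 and 120 CPM with IFNg, against 130 and 121 CPM with vehicle, groups that overlapped (kinetics 1.57 ± 0.10, adjusted p = 6.52e-12). TAP1, a subunit of the transporter that loads peptides onto class I molecules, was the single list member called early. TAP1 had 1186 and 1351 CPM at 6 h with IFNg, against 387 and 362 CPM with vehicle, and 484 and 444 CPM at 1 h with IFNg, against 340 and 333 CPM with vehicle. It was thus raised at both times and further at 6 h (kinetics 1.30 ± 0.09, adjusted p = 3.12e-11). TAP2, the other subunit, had 0.96 ± 0.07 (adjusted p = 1.23e-10), and PSMB9, an immunoproteasome subunit, 0.97 ± 0.09 (adjusted p = 9.61e-09). The annotated spans of TAP1 (chr6:32845209-32853816, minus strand) and PSMB9 (chr6:32844136-32859851, plus strand) overlap in GENCODE 44, and reads of the pair could be divided wrongly between them, since no source used here tells if strand entered the counting.

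Presentation through MHC class II had fewer calls than that through class I. Of 18 genes tested, 1 had positive kinetics (5.56%) and 3 were raised at 6 h (16.67%), with a median kinetics of 0.04. The shares over all genes tested were 1.12% and 3.47%. The member with positive kinetics was CTSS, the protease that trims the invariant chain, with 163 and 150 CPM at 6 h with IFNg, against 105 and 107 CPM with vehicle. At 1 h CTSS had 110 and 110 CPM with IFNg, against 112 and 105 CPM with vehicle (kinetics 0.55 ± 0.07, adjusted p = 2.12e-05). CIITA, the class II transactivator, had 299 and 370 CPM at 6 h with IFNg, against 322 and 328 CPM with vehicle, and its kinetics of 0.02 ± 0.09 had a 95% interval from -0.16 to 0.21 and was -0.13 without DMSO+IFNg 6 h replicate 2.

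Of 48 antiviral interferon-stimulated genes tested, 17 were late, 1 was growing and 5 were sustained. A further 18 were raised at 6 h with no call at 1 h or in the kinetics, and 7 had no call. The 18 called in the kinetics each had a positive value, the median of the list was 0.34, and 41 genes were raised at 6 h, against 6 at 1 h. PARP9, a partner of DTX3L in antiviral signalling, had 218 and 269 CPM at 6 h with IFNg, against 81.2 and 70.7 CPM with vehicle. PARP9 at 1 h had 79.8 and 66.6 CPM with IFNg, against 68.0 and 66.6 CPM with vehicle (kinetics 1.56 ± 0.12, adjusted p = 1.05e-08). RIGI, a sensor of viral RNA, had kinetics of 1.04 ± 0.13 (adjusted p = 2.66e-06), EPSTI1 1.06 ± 0.09 (adjusted p = 8.40e-09) and IFI35 0.86 ± 0.10 (adjusted p = 2.66e-06). These 4 calls held under all 14 alternatives. Of the interferon regulatory factors beside IRF1 and IRF8, IRF2, which competes with IRF1 for its sites, had kinetics of 0.63 ± 0.10 (adjusted p = 9.19e-05). IRF5, which transmits Toll-like receptor signals, had 0.38 ± 0.08 (adjusted p = 0.00528), a call that was lost in the fit of the 8 libraries alone (adjusted p = 0.0626). In all, 3 of 9 regulatory factors were called in the kinetics, each with a positive value, the other being IRF9 (0.35 ± 0.09, adjusted p = 0.0402). IRF9 was called in 2 of the 8 fits that left out 1 library, those without DMSO+IFNg 6 h replicate 2 and DMSO+Veh 6 h replicate 1.

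CXCL9 and CXCL10, which attract T cells through CXCR3, differed widely between the IFNg replicates at 6 h. CXCL9 had 62.1 and 224 CPM at 6 h with IFNg, against 9.28 and 7.66 CPM with vehicle, and 20.1 and 22.3 CPM at 1 h with IFNg, against 10.1 and 8.59 CPM with vehicle. CXCL10 had 31.2 and 101 CPM at 6 h with IFNg, against 7.95 and 7.89 CPM with vehicle, and 35.5 and 35.2 CPM at 1 h with IFNg, against 7.56 and 9.26 CPM with vehicle. The IFNg libraries lay above the vehicle libraries at both times for both genes, but replicate 2 at 6 h exceeded replicate 1 by over 3-fold. The kinetics of CXCL9 was 2.93 ± 0.71 (adjusted p = 0.0588) and was called by DESeq2 (adjusted p = 5.15e-05) and without either DMSO+IFNg 6 h library. The kinetics of CXCL10 was 1.01 ± 0.60 (adjusted p = 0.632), and was called only without DMSO+IFNg 6 h replicate 1 (adjusted p = 1.48e-06), while it was -0.084 without replicate 2. In the chemokine list 1 of 11 genes was called in the kinetics, CCL3, with a negative value.

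**Figure D3:**
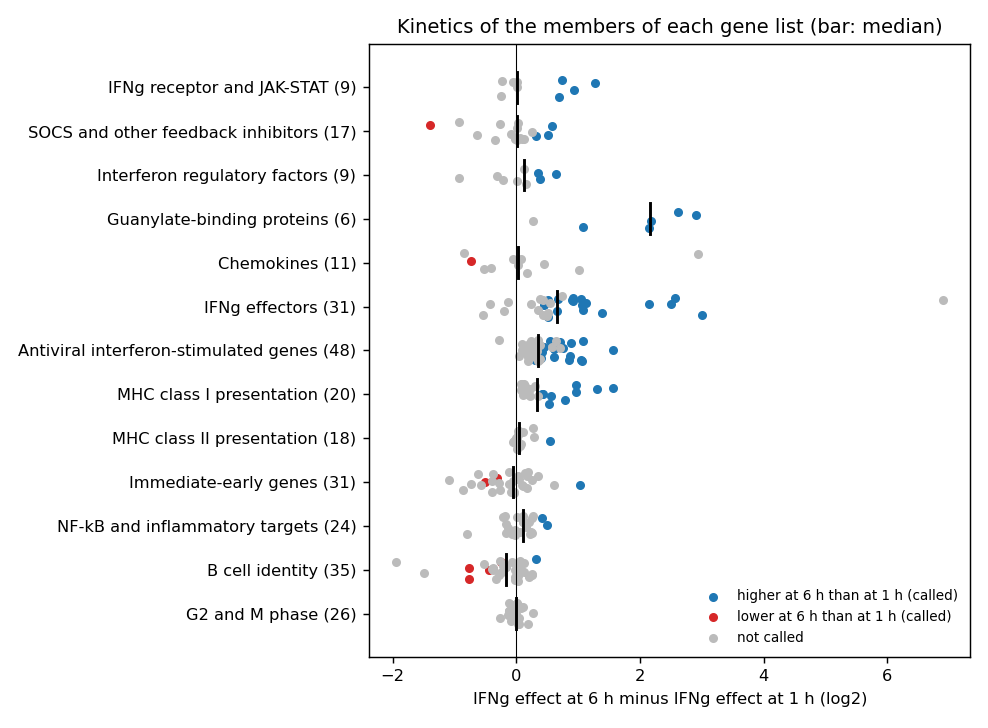
Kinetics (log2 fold change of IFNg over vehicle at 6 h minus that at 1 h, horizontal axis) of the tested members of 13 gene lists, with list sizes in brackets; points are genes, coloured by call, and bars are list medians. The median is highest for guanylate-binding proteins at 2.16 and IFNg effectors at 0.66, and the uncalled point at 6.90 is SERPING1, which had 0 counts in both vehicle libraries at 6 h and was singled out after its value was seen.

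Immediate-early genes and targets of NF-kB showed no common course in the kinetics. At 6 h 6 of 24 NF-kB targets were raised (25.0%) and 1 lowered, against 3.47% and 3.15% of all genes tested. In the second set of libraries, described below, 15 of 24 were raised (62.5%) and 2 lowered, against 7.11% and 4.75%. Of 31 immediate-early genes tested, 5 were raised (16.13%) and 4 lowered (12.9%) at 1 h, against 0.43% and 0.08% of all genes. In the kinetics 1 had a positive and 2 had a negative value (median -0.06). ATF3, a stress-induced repressor, was the member with positive kinetics, with 17.0 and 23.8 CPM at 6 h with IFNg, against 9.75 and 10.2 CPM with vehicle. At 1 h ATF3 had 11.4 and 11.9 CPM with IFNg, against 11.5 and 11.7 CPM with vehicle (kinetics 1.03 ± 0.20, adjusted p = 0.00270). MYC and JUNB were called at neither time, and EGR1 had kinetics of -0.62 ± 0.21 (adjusted p = 0.163), which passed the test without DMSO+IFNg 6 h replicate 2 (adjusted p = 0.0241). Of 24 NF-kB targets 2 had positive kinetics: TNF (0.42 ± 0.09, adjusted p = 0.00461), lost without DMSO+IFNg 1 h replicate 2 (adjusted p = 0.0583) or DMSO+Veh 1 h replicate 1 (adjusted p = 0.0553), and the anti-apoptotic BCL2A1 (0.49 ± 0.10, adjusted p = 0.00371), lost without DMSO+Veh 1 h replicate 2 (adjusted p = 0.0800).

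For 1 of the 12 genes that IFNg lowered at 1 h, the change between times passed the test. Their median log2 fold change was -0.20 at 6 h and -0.40 at 1 h. ID3, which holds E proteins off DNA, had 56.0 and 48.9 CPM at 6 h with IFNg, against 64.9 and 54.3 CPM with vehicle. At 1 h ID3 had 32.2 and 32.9 CPM with IFNg, against 54.7 and 53.4 CPM with vehicle. The ID3 groups overlapped at 6 h and stood apart at 1 h (kinetics 0.55 ± 0.12, adjusted p = 0.00656), and the call was lost without DMSO+IFNg 6 h replicate 1 (adjusted p = 0.0544) or DMSO+Veh 6 h replicate 2 (adjusted p = 0.0732). GPR183, the oxysterol receptor that positions B cells, had log2 fold changes of -0.26 ± 0.08 at 6 h and -0.57 ± 0.08 at 1 h (kinetics 0.31 ± 0.11, adjusted p = 0.200). ZFP36L1, an RNA-binding relative of ZFP36, had log2 fold changes of -0.32 ± 0.07 at 6 h and -0.50 ± 0.07 at 1 h, and its kinetics of 0.17 ± 0.09 (adjusted p = 0.551) passed the test without DMSO+IFNg 6 h replicate 1 (adjusted p = 0.0118) and was -0.0070 without replicate 2. The class held 7 genes without either DMSO+IFNg 1 h library or without DMSO+Veh 1 h replicate 2, and 4 without DMSO+Veh 1 h replicate 1.

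Late falls were small, with a median log2 fold change of -0.42 at 6 h and 0.04 at 1 h, and 4 of the 119 genes are in the B cell identity list. CD22, an inhibitory co-receptor of B cells, had 135 and 142 CPM at 6 h with IFNg, against 193 and 186 CPM with vehicle. At 1 h CD22 had 201 and 203 CPM with IFNg, against 205 and 200 CPM with vehicle. Both 6 h IFNg libraries lay below the other 6 (kinetics -0.45 ± 0.07, adjusted p = 0.000345), and the call held under all 14 alternatives. SDC1, the proteoglycan syndecan-1 known from plasma cells, had 27.9 and 35.4 CPM at 6 h with IFNg, against 55.1 and 53.6 CPM with vehicle. SDC1 at 1 h had 57.2 and 55.6 CPM with IFNg, against 61.2 and 53.3 CPM with vehicle (kinetics -0.75 ± 0.15, adjusted p = 0.00646). PSTPIP1, an adaptor of the cytoskeleton, had the lowest kinetics among late falls named by the rule, with 4.50 and 5.86 CPM at 6 h with IFNg, against 7.95 and 9.59 CPM with vehicle, and 11.1 and 10.5 CPM at 1 h with IFNg, against 8.48 and 7.35 CPM with vehicle (-1.21 ± 0.23, adjusted p = 0.00248). IKZF1, the lymphoid factor Ikaros, had -0.37 ± 0.08 (adjusted p = 0.00867), and CD180, a Toll-like receptor relative of B cells, -0.77 ± 0.19 (adjusted p = 0.0210). Both lost their call without DMSO+IFNg 6 h replicate 1 (adjusted p = 0.0742 and 0.193) and without DMSO+Veh 1 h replicate 2 (adjusted p = 0.0508 and 0.150). IKZF1 also lost it without DMSO+Veh 6 h replicate 2 or DMSO+IFNg 1 h replicate 1, and CD180 without DMSO+Veh 6 h replicate 1 or DMSO+IFNg 1 h replicate 2.

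In the B cell identity list 1 of 35 genes had positive and 5 had negative kinetics (14.29%, list median -0.16). At 6 h 11 were lowered (31.43%) and 3 raised (8.57%). Over all genes tested, 0.89% had negative kinetics, and 3.15% were lowered and 3.47% raised at 6 h. The number of late falls depended on single libraries. It was 53 without DMSO+IFNg 6 h replicate 1 and 235 without replicate 2, 72 without DMSO+Veh 6 h replicate 1, 72 and 54 without DMSO+IFNg 1 h replicates 1 and 2, and 60 and 47 without DMSO+Veh 1 h replicates 1 and 2. Of the 119 genes, 101 were lower in DMSO+IFNg 6 h replicate 1 than in replicate 2, with a median log2 ratio of -0.12. Of all 15183 genes tested 7970 were lower there, with a median of -0.01. DMSO+IFNg 6 h replicate 1 was also the shallowest library. Whether its depth bears on the falls was not tested. In each of the 8 fits that left out 1 library the kinetics call was kept by 30 of the 119 late falls, 71 of the 155 late genes and 6 of the 10 growing genes.

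A second set of GM12878 libraries, which took no part in defining the classes, gives the IFNg effect at 6 h again. These are 2 libraries with IFNg at 100 ng/mL for 6 h, set against 2 with DMSO and 2 with PBS, none of which had a pretreatment, and there is no 1 h group among them. IFNg raised 1122 of 15775 genes (7.11%) and lowered 750 (4.75%) there. Of the 155 late genes 152 were raised, with a median of 0.63, and 104 of the 119 late falls were lowered, with a median of -0.32. All 10 growing and 4 declining genes and 29 of 30 sustained genes were raised. Transient genes were raised in 4 of 10 cases, with a median of 0.18, and early falls were lowered in 6 of 12. GBP5 had 121 and 116 CPM with IFNg there, against 7.21 and 6.47 CPM with DMSO and 5.29 and 5.40 CPM with PBS, and SOCS3 43.7 and 39.4 CPM with IFNg, against 11.1 and 11.2 CPM with DMSO and 11.8 and 9.70 CPM with PBS. The 2 IFNg libraries of that set lay close together for both genes and apart from all 4 controls. CD69 had 19.8 and 21.7 CPM with IFNg, against 18.7 and 17.5 CPM with DMSO and 17.0 and 17.1 CPM with PBS, a difference of 0.24 ± 0.08 that was not called (adjusted p = 0.0562). The 4 transient genes raised there were PDE4B, RGS1, ZFP36 and PRDM1. PDE4B had 33.8 and 35.4 CPM with IFNg, against 22.1 and 21.9 CPM with DMSO and 22.8 and 24.7 CPM with PBS (0.59 ± 0.08, adjusted p = 4.04e-07). RGS1 had 134 and 134 CPM with IFNg, against 102 and 90.3 CPM with DMSO and 84.8 and 92.0 CPM with PBS (0.54 ± 0.05, adjusted p = 1.71e-10). Both genes were thus above all 4 controls at 6 h in that set, where the 6 h effect in the pretreated libraries had not been called. Without 1 of the IFNg libraries 1218 (replicate 1) and 1060 genes (replicate 2) were called in either direction, against 1872 (11.9%) with both.

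**Figure D4:**
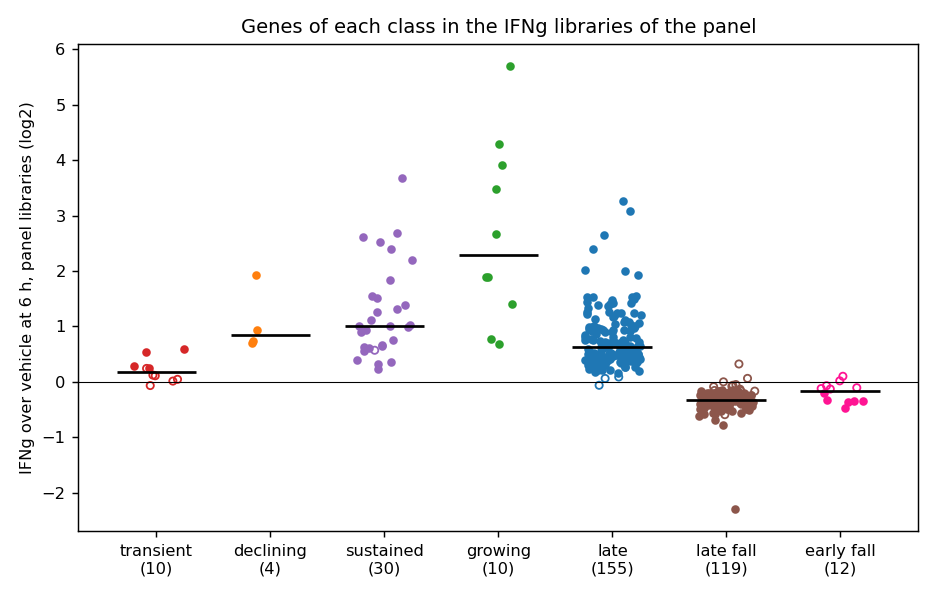
Log2 fold change of IFNg over the DMSO and PBS controls at 6 h in the second set of libraries (vertical axis) for the genes of each class, with class sizes in brackets; filled points passed the test in that set, open points did not, and bars are medians. Late and growing genes lie above 0 with medians of 0.63 and 2.28, late falls below it at -0.32, and transient genes near it at 0.18.

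With BRM014, an inhibitor of the BAF ATPases, given at 10 µM for 30 min before the stimulus, the same difference of times was called in 133 genes (0.876%), 127 positive (0.836%) and 6 negative (0.0395%), in 8 other libraries with their own vehicle groups. The median kinetics of the late class was 0.43 with BRM014 and 0.52 with DMSO, and with BRM014 it was positive in 142 of the 155 genes and called in 68. The median of the late falls was -0.15 with BRM014, with 2 of 119 called, and -0.44 with DMSO. Transient genes had a median of -0.27 with BRM014, with none of 10 called, and -0.70 with DMSO, and declining genes -0.063 with BRM014 and -0.64 with DMSO. The kinetics was higher with BRM014 than with DMSO in 117 of 119 late falls, 9 of 10 transient and 4 of 4 declining genes, and in 50 of 155 late genes. The DMSO kinetics defined these classes and is also what the difference subtracts, so its direction is partly set in advance. The values are therefore set side by side with no test, and nothing is drawn from these counts. Over all genes tested the median difference between arms was 0.0011 on the log2 scale. SOCS3 had kinetics of -0.50 (adjusted p = 0.547) and GBP5 2.72 (adjusted p = 0.0313) in that arm. The difference between arms was called in 4 genes (0.0263%), among them PDE4B, IFIT2 and IFIT3, each with higher kinetics with BRM014. That count was 9 without DMSO+IFNg 6 h replicate 1 and 23 without replicate 2. With so few calls, and 801 genes (5.28%) at an unadjusted p under 0.05, a class that passes in 1 arm and not in the other is not shown to differ.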

How the data were processed

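Polyadenylated RNA of GM12878 was sequenced as strand-marked, paired-end libraries, per the labels' protocols. Alignment and counting tools named in the submitters' processing notes are STAR and RSEM, with build hg38. The authors deposited RSEM expected counts per gene, which were rounded here (4.15% to 4.74% of values were not whole), and TPM values, used only to compare levels between genes. Symbols came from GENCODE 44 (58207 of 58780 IDs matched), and 746 other IDs held 0 counts and were left out.

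All 24 libraries and 12 groups of the pretreatment experiment were fitted together in edgeR 4.0.16 (R 4.3.3; filterByExpr, TMM, robust quasi-likelihood, no covariates), which left 12 residual degrees of freedom. The second set, 15 libraries in 8 groups, had its own fit. Calls are 2-sided, with p-values adjusted by Benjamini and Hochberg over all genes tested and a threshold of 0.05. Standard errors are the log2 value over the square root of F, and CPM values are TMM-scaled. The 14 alternatives of the kinetics were DESeq2 size factors, DESeq2 1.42.0, no low-count filter, a replicate block, the 4 compared groups alone, each of 8 libraries left out, and no vehicle subtracted.

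Genes were named by a rule: SOCS3 and GBP5, the 12 highest and 12 lowest kinetics among called genes of at least 5 CPM, up to 6 per class, up to 4 per list by smallest p, every receptor, feedback, regulatory factor and guanylate-binding gene, and known response genes. For the 12 highest, both IFNg libraries also had to lie above both vehicle libraries at 6 h or below them at 1 h. For the 12 lowest, they had to lie above them at 1 h or below them at 6 h. Non-overlap of the groups was thus partly a condition for naming these genes. Other named genes, and the class members listed beside counts, were chosen after their values were seen. Some genes are counted but not reported here by name. Members, lists and classes were chosen with earlier results of these data known. On simulated data (15082 genes) the kinetics test recovered 49.3%, 76.1% and 93.9% of genes changed 1.5, 2 and 4-fold, with 4 false of 150 calls. The simulation gave a gene the same spread in every group and changed only genes above a low mean level. In the data the compared pairs at 6 h differed more than those at 1 h. The simulated false calls are therefore no measure of those in the data.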

Additional observations from a re-analysis of the deposited data

Results flagged for a closer look

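PDE4B, IFIT2 and IFIT3 were among 4 genes whose kinetics differed between the arms of the experiment by the test of the difference itself, each higher with BRM014 than with DMSO. PDE4B differed by 1.21 ± 0.21 on the log2 scale (edgeR, adjusted p = 0.00984). In that gene the kinetics was 0.20 with BRM014 and -1.01 with DMSO. Its 1 h libraries had 13.2 and 12.2 CPM with BRM014 and IFNg, against 12.4 and 12.3 CPM with BRM014 and vehicle, so that the early rise of the DMSO libraries was not visible there. IFIT2 and IFIT3, antiviral proteins that bind viral RNA, differed by 0.98 ± 0.16 (adjusted p = 0.00388) and 0.92 ± 0.14 (adjusted p = 0.00145), and both had been sustained in the DMSO arm. With BRM014, IFIT3 had 108 and 113 CPM at 6 h with IFNg, against 36.6 and 41.8 CPM with vehicle. At 1 h IFIT3 had 95.3 and 81.4 CPM with IFNg, against 74.5 and 71.6 CPM with vehicle, in the same arm. Its vehicle level was thus lower at 6 h. IFIT2 with BRM014 had 47.8 and 50.2 CPM at 6 h with IFNg, against 22.4 and 23.7 CPM with vehicle. With DMSO and IFNg at 6 h IFIT3 had 220 and 235 CPM and IFIT2 75.4 and 88.4 CPM. The count of 4 was 9 without DMSO+IFNg 6 h replicate 1 and 23 without replicate 2.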

How the results depend on the processing

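The numbers of replicates pair no samples by the labels. Their deviations correlated at 0.173 and 0.149 between groups of the same time, and from -0.0402 to -0.223 between times. A replicate block called 333 genes in the kinetics. Of 1612 values of named genes under an alternative, 1419 stayed on their side of the threshold, 133 lost and 59 gained a call with the same sign. The sign changed in 53 values of 24 genes, none of them called as reported, and in 52 of these the gene was called in neither setting. The exception was SLC30A1, which had kinetics of 0.28 and, with no vehicle subtracted, -0.43 (adjusted p = 0.00496), a setting that called 1906 genes in all, 290 of them among the 305.

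With the compared groups alone, fewer libraries set the spread, and 154 genes were called in the kinetics, 128 at 1 h, 349 at 6 h and 75 in the vehicle over time. Declining genes then numbered 2, growing 2, late 89 and late falls 46. With no filter the vehicle comparison called 360 genes, the difference between arms 24, and declining and early falling genes 8 and 19; DESeq2 called 9 for the arms. At an adjusted p under 0.01 the declining, growing, late and late fall classes held 1, 3, 91 and 41 genes. With an effect of at least 1 the transient, sustained, late, late fall and early fall classes held 3, 15, 33, 1 and 0 genes, as most effects are smaller. The causes of other moves were not tested.

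Leaving out 1 library gave 157 to 452 genes for the kinetics, 50 to 59 at 1 h, 664 to 992 at 6 h, 27 to 161 in the vehicle over time, 94 to 129 with BRM014, 3 to 23 between arms and 1060 to 2027 in the second set. The classes ranged from 5 to 17 (transient), 1 to 7 (declining), 24 to 32 (sustained), 2 to 18 (growing), 88 to 163 (late), 47 to 235 (late fall) and 4 to 14 (early fall). With 2 libraries a group, changes under 1.5-fold are often missed.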
